A study of Mus musculus with 2 samples.

Results

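Mature neutrophils were described in the bone marrow of 1 control mouse and 1 mouse lacking Ddx41 in blood cells and cGAS in all cells. Ddx41 is a DEAD-box RNA helicase, and cGAS is the cytosolic DNA sensor that starts interferon signaling through STING. Members were selected on measured values, their own UMI counts. A barcode was taken as a mature neutrophil when 5 myeloid genes (S100a8, S100a9, Camp, Ngp and Ltf) gave at least 5% of its UMIs (unique molecular identifiers, counted RNA molecules), when it had fewer than 3 UMIs of Fcnb, and when it had more UMIs of Retnlg than of Ltf. It also needed at least 500 UMIs, at most 20% mitochondrial UMIs and under 20% hemoglobin UMIs. The rule found 3462 mature neutrophils among 34089 barcodes of at least 500 UMIs, 1669 in the control and 1793 in the mutant library.

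The control was a littermate labelled WT, with floxed Ddx41 alleles, no VavCre and wild-type cGas. The mutant was labelled VavCre:Ddx41 fl/fl, cGAS-/- (DKO), and both mice were 2 months old. VavCre is driven by the promoter of a hematopoietic gene, so Ddx41 was targeted in all blood lineages and not in neutrophils alone, and it is also active in some endothelial cells. Marrow was flushed from the bones and sequenced as single cells with a droplet kit, with a single library for each mouse. Variation from mouse to mouse could thus not be measured, no test between genotypes was possible, and every interval here is a 95% interval of counting error only. The mature neutrophils held 5837498 UMIs in the WT and 7018350 UMIs in the DKO library, with a median of 3072 and 3589 UMIs per barcode.

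Neutrophils are the short-lived phagocytes that the marrow makes in the largest number. As they mature they fill their granules in a fixed order: azurophil granules at the promyelocyte stage, specific granules with lactoferrin and cathelicidin later, and gelatinase granules and secretory vesicles last. The genes of early granule proteins are shut off before the cell leaves the marrow, while receptors for chemokines, cytokines and microbial products are switched on. Interferon-stimulated genes encode antiviral proteins and are read in neutrophils as a record of exposure to type I or type II interferon.

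The 4 markers named for this cell type were present in both libraries. Retnlg, a resistin-like secreted protein used in the rule, stood at 20008 CPM (UMIs of the gene scaled to the summed UMIs of the members) in WT and 18691 CPM in DKO. Mmp8, the neutrophil collagenase, was at 3358 CPM in WT and 3669 CPM in DKO. Cxcr2, the chemokine receptor that draws neutrophils out of the marrow, was at 1040 CPM in WT and 1218 CPM in DKO. None of the 4 differed by 1.5-fold between the libraries, the log2 ratio of S100a8, the calprotectin subunit and also a gene of the rule, being -0.09. After each barcode was thinned to 1000 UMIs, Cxcr2 was seen in 66.0% of WT and 70.3% of DKO mature neutrophils, against 91.6% and 96.1% before thinning. In B-lineage barcodes, which should lack it and which had median depths of 2797 and 3903 UMIs, the thinned share for Cxcr2 was 0.474% in each library.

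The rule cuts a continuous range. In 63 WT and 32 DKO members Retnlg exceeded Ltf by at most 2 UMIs, and 75 WT and 44 DKO barcodes lay just outside on the same measure. Camp, the cathelicidin gene, was at 4839 CPM in WT and 10207 CPM in DKO just inside the boundary, and at 11126 and 11394 CPM just outside it. Cxcr2 was at 1169 and 1225 CPM just inside and at 574 and 994 CPM just outside. The libraries shared 82 barcodes of at least 500 UMIs, of which 10 were WT members and 6 were DKO members, and no barcode was a member in both.

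Markers of other lineages were low but not absent in the mature neutrophils, and they were unequal between the libraries. The 9 B cell genes summed to 829 CPM in WT and 450 CPM in DKO, and the 6 megakaryocyte genes to 214 and 30.8 CPM. The 10 T and NK cell genes summed to 70.2 and 23.9 CPM, the 10 monocyte genes to 834 and 668 CPM, the 8 macrophage genes to 419 and 399 CPM, and the 8 dendritic cell genes to 102 and 53.9 CPM. The 9 erythroid genes stood at 6390 and 4707 CPM, mostly hemoglobin, and the 10 genes of eosinophils, basophils and mast cells at 14.2 and 9.97 CPM. Of these lists, the genes at 0 UMIs were Fcer1a (basophils and mast cells) and Xcr1 (dendritic cells) in both libraries, and Epx (eosinophils) and Gp1bb (megakaryocytes) in DKO. Members with at least 2 UMIs of Cd79a, Cd79b, Pf4, Ppbp, C1qa, C1qb, C1qc, Cd3e and Nkg7 together, which mark B cells, platelets and megakaryocytes, macrophages and T or NK cells, were 225 in WT (13.5%) and 87 in DKO (4.85%). List counts and named genes whose calls change when these barcodes are left out are given both ways below, a choice made after the values were seen. No doublet caller was run, and the part of doublets in these barcodes was not tested.

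Mature neutrophils made up a larger share of the neutrophil barcodes in the DKO library. They were 47.7% of 3497 neutrophil barcodes in WT (Clopper-Pearson interval 46.1% to 49.4%) and 56.6% of 3168 in DKO (54.9% to 58.3%). The remaining neutrophil barcodes were immature ones, with Ltf at or above Retnlg, at 30.7% and 25.4%, and early ones, with at least 3 UMIs of Fcnb (a ficolin of young neutrophils), at 21.6% and 18.0%. Of all barcodes that passed the UMI, mitochondrial and hemoglobin limits, the mature neutrophils were 14.4% in WT (13.8% to 15.1%) and 22.8% in DKO (21.9% to 23.8%).

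The difference in share depended on how much of a barcode the 5 myeloid genes had to fill. It was 8.87 percentage points as reported and 2.69 points when these genes had to give at least 15% of the UMIs, which kept 962 WT and 826 DKO members. The 5 genes gave 18.3% of the members' UMIs in WT and 16.4% in DKO. The files also differed, since the WT matrix listed all barcodes and the DKO matrix only those the authors' software called as cells.

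**Figure D1:**
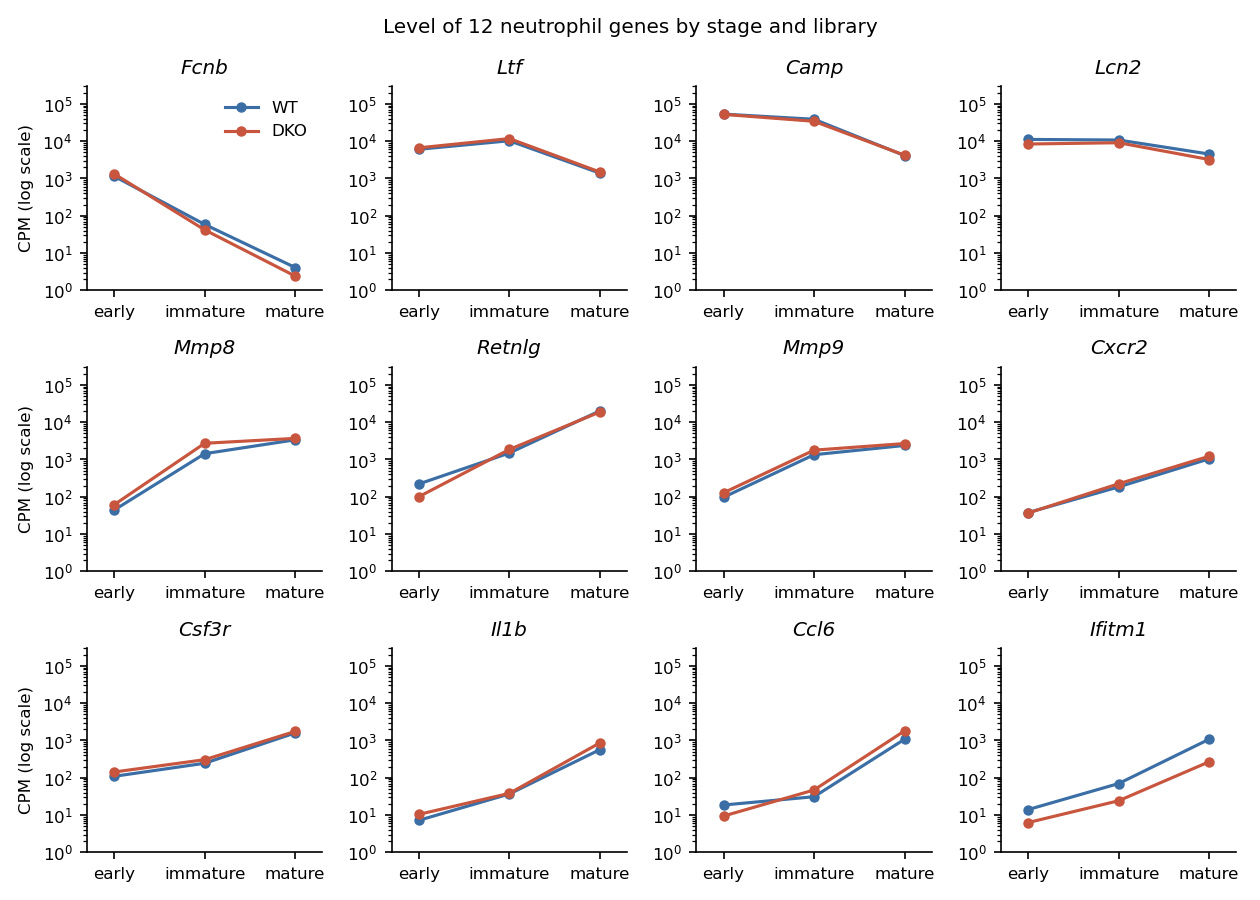
Level of 12 neutrophil genes (CPM of the summed UMIs, log scale) in early, immature and mature neutrophils, one line per library, without error bars because the counting intervals are mostly smaller than the points. Fcnb, Ltf, Camp and Lcn2 were lower in mature than in immature neutrophils and Retnlg, Cxcr2, Csf3r, Il1b and Ccl6 higher in both libraries, while Ifitm1 stood apart between the libraries at each stage.

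The stages were compared within each library. A gene is called higher or lower here when the difference is at least 1.5-fold and its interval does not include equality. Of 5401 genes, 991 (18.3%) were called higher and 1029 (19.1%) lower in mature than in immature neutrophils in each library. The rule used this contrast, so these values describe the stage and support nothing. The 10 genes with the largest rise included Cstdc4, a stefin of the cystatin family, with a mean log2 ratio of 5.90, Ccl6, a CC chemokine, with 5.18, Jaml, a junctional adhesion molecule of leukocytes, with 4.73, Clec4d, a C-type lectin receptor, with 4.71, and Il1b, interleukin-1 beta, with 4.21. The others were Sirpb1b, Gm5150, Acod1, Stfa2l1 and Cd101, with 4.24 to 4.58. The 10 largest falls included Zmpste24, a membrane protease, with -4.59, Chil3, a chitinase-like lectin, with -4.11, Camp with -3.12 and Ltf with -2.93. The others were Ica1, Cpa6, Inhba, Fmnl2, Lta4h and Prom1, with -3.96 to -2.97. Of the lists of genes used here, cytokines and their receptors were called higher for 20 of 23 genes in each library, and cell cycle genes were called lower for 16 of 16. Of the 4 markers named for the cell type, only 2 were called higher in mature than in immature neutrophils in each library.

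The mature neutrophils themselves spanned a gradient when they were split by Ltf, the lactoferrin gene. Ltf was not detected in 1127 of the WT and 1204 of the DKO members, which is 67.5% and 67.2%. From the members with at least 10 Ltf UMIs (214 in WT, 273 in DKO) through those with 1 to 9 to those with 0, Camp went from 15671 to 2619 to 256 CPM in WT and from 14167 to 3432 to 397 CPM in DKO. Csf3r, the receptor for G-CSF, ran the other way, from 391 to 1094 to 2233 CPM in WT and from 575 to 1276 to 2371 CPM in DKO. Il1b went from 32.3 to 264 to 886 CPM in WT and from 21.8 to 479 to 1321 CPM in DKO. Cxcr4, the receptor that retains neutrophils in the marrow, showed no such order, at 191, 206 and 188 CPM in WT and 238, 269 and 255 CPM in DKO. Ltf is a gene of the selection rule, so the split describes the members and supports nothing. Cebpe, the transcription factor of the specific granule program, was lowest there, at 21.4 CPM in WT and 28.7 CPM in DKO.

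The targeted genes were checked first between genotypes. Ddx41 gave 72 UMIs in the WT and 34 UMIs in the DKO mature neutrophils, or 12.3 and 4.84 CPM, a log2 ratio of DKO over WT of -1.33 (interval -1.98 to -0.74). Cgas gave 15 and 5 UMIs, or 2.57 and 0.71 CPM, with a log2 ratio of -1.68 (-3.67 to -0.32). Neither gene reached the level at which genes were compared, a mean of 20 CPM. The kit counts the ends of transcripts, which may lie outside the deleted parts, so remaining UMIs do not measure remaining protein. In early neutrophils Cgas was nearly level, with 24.7 CPM in WT and 24.0 CPM in DKO.

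Of 4662 genes compared between the libraries in mature neutrophils, 304 (6.52%) were called higher and 361 (7.74%) lower in DKO, with a median log2 ratio of 0.05. The split depended on the scaling. With median-of-ratios scaling 232 genes were higher and 436 lower, which moved the higher share of the calls from 45.7% to 34.7%. Without the members that carried the 9 lineage genes, 257 were higher and 219 lower, of which 238 and 200 were among those called with all members. Acod1, named above for its rise with stage, was then called lower (log2 ratio -0.61, against -0.54 with all members). Of the 304 genes higher in mature neutrophils, 89 were also called higher in immature neutrophils, where 221 genes (4.43%) were, and 94 in early neutrophils, where 675 (12.7%) were. Of the 361 lower genes, 152 were called lower in immature neutrophils, of 343 (6.87%), and 64 in early ones, of 192 (3.62%). Of the 304, 67 were under the level of comparison in immature and 108 in early neutrophils, and of the 361, 41 and 71. Those genes could not be called at that stage. The 3 stages come from the same 2 libraries and are not independent of each other.

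**Figure D2:**
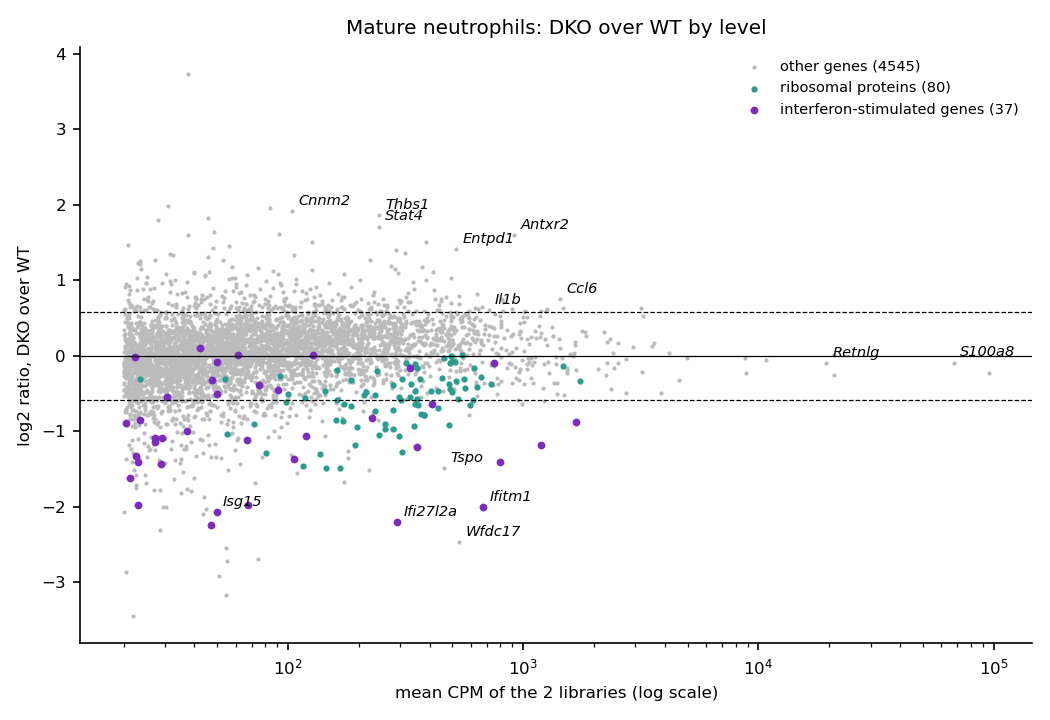
Log2 ratio of DKO over WT against the mean CPM of both libraries (log scale) for the 4662 genes compared in mature neutrophils, one point per gene, with dashed lines at 1.5-fold. Interferon-stimulated genes (37) and ribosomal protein genes (80) lay mostly below 0, and Retnlg and S100a8 lay near 0.

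Interferon-stimulated genes were lower in the DKO mature neutrophils. Of 59 listed genes in the table, 37 passed the level of 20 CPM, 25 were called lower and none higher, and 34 of the 37 had a log2 ratio below 0. Their median was -1.06, against 0.05 over all genes, where 7.74% were called lower. The 59 genes summed to 10904 CPM in WT and 5515 CPM in DKO. A list whose members can pass the level through WT alone leans toward lower calls, and 22 listed genes fell under it.

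The secreted ubiquitin-like modifier Isg15 stood at 80.5 CPM in WT (73.4 to 88.1) and 19.1 CPM in DKO (16.0 to 22.6), a log2 ratio of -2.07. Ifit1, which binds viral RNA caps, was at 32.2 and 10.4 CPM, and Rsad2, the antiviral enzyme viperin, at 91.1 and 42.0 CPM. Their WT and DKO intervals did not overlap. Irf7, the transcription factor that amplifies interferon production, was at 32.4 and 12.8 CPM. Zbp1, a sensor of Z-form nucleic acid, was at 36.8 and 9.26 CPM. Ifih1, the RNA sensor MDA5, was at 30.1 and 16.7 CPM. Zbp1 and Ifih1 were the 2 genes called lower among 8 compared of the nucleic acid sensing list, whose median was -0.37.

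The interferon-induced transmembrane proteins, which block the entry of enveloped viruses, showed the same order in each gene. Ifitm1 was at 1078 CPM in WT and 268 CPM in DKO (log2 ratio -2.01, interval -2.08 to -1.93). Ifitm2 was at 1644 and 724 CPM, Ifitm3 at 1160 and 439 CPM and Ifitm6 at 2163 and 1173 CPM. Ifitm1 (chr7:140967221-140969825) and Ifitm3 (chr7:141009586-141010770, mm10) lie close together, and reads that such similar neighbors share may have been dropped or assigned to either. Ifitm1 was also a late gene, with a mature over immature log2 ratio of 3.94 in WT and 3.46 in DKO.

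Ifitm1 was found in fewer cells as well as at a lower level. After thinning to 1000 UMIs it was seen in 36.4% of WT (34.1% to 38.8%) and 16.8% of DKO mature neutrophils (15.1% to 18.6%), against 1.61% and 0.542% of B-lineage barcodes. Before thinning the shares were 51.3% and 29.9%. Ifitm3 was seen in 62.3% of WT and 32.1% of DKO mature neutrophils after thinning, and in 4.41% and 1.49% of B-lineage barcodes. Within the Ltf gradient Ifitm1 was highest in the members with no Ltf in both libraries, going from 126 to 436 to 1686 CPM in WT and from 31.5 to 167 to 397 CPM in DKO, so the WT level was higher at each step.

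The other families of the list followed. Among the oligoadenylate synthetase genes, which make the activator of RNase L, and their relatives, Oasl2 was at 153 CPM in WT and 59.4 CPM in DKO, Oas3 at 161 and 77.1 CPM and Oas2 at 42.3 and 15.5 CPM. Of the schlafens, a family of growth and virus restriction genes with similar copies, Slfn5 was at 77.8 and 16.4 CPM, with the lowest log2 ratio of the 25 called genes, -2.24. Slfn4 was at 495 and 214 CPM, and Slfn1 at 500 and 321 CPM. Ifi27l2a, a small mitochondrial protein gene, was at 478 and 104 CPM. Rtp4, a chaperone of membrane receptors, was at 108 and 27.5 CPM. The 12 genes compared and not called included Stat2 (22.4 and 22.2 CPM), a transducer of the interferon receptors, as well as Eif2ak2, the RNA-activated kinase PKR, with 40.8 and 43.7 CPM. Samhd1, a dNTPase, was at 777 and 727 CPM.

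**Figure D3:**
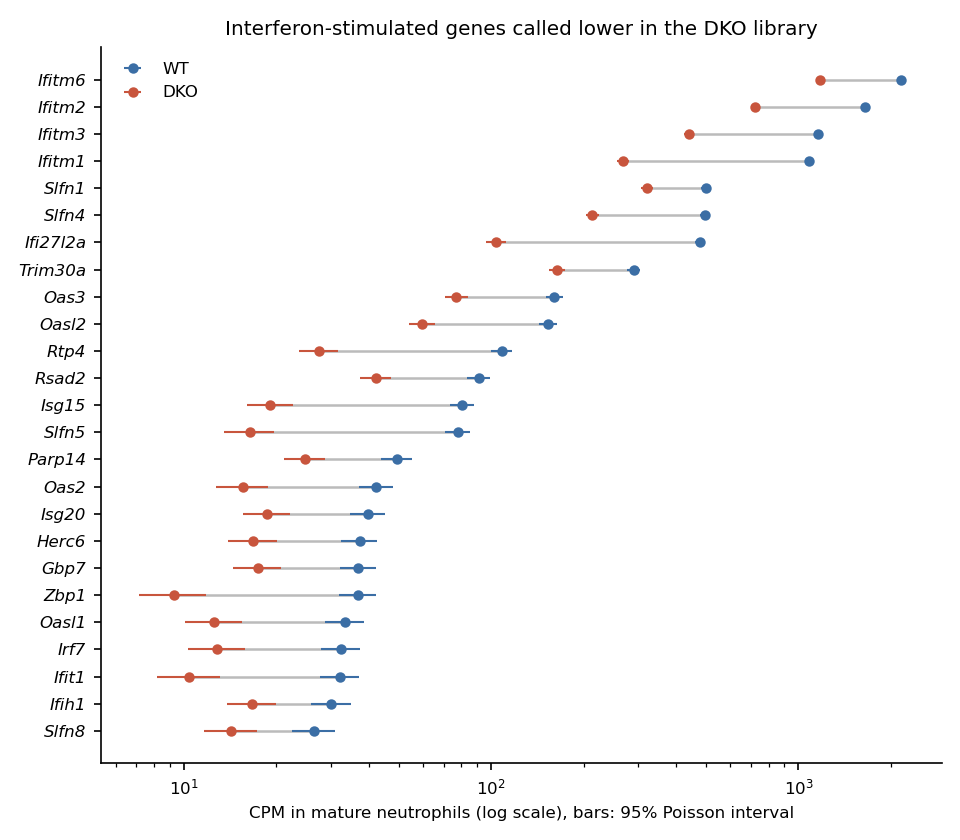
CPM in mature neutrophils (log scale) of the 25 interferon-stimulated genes called lower in DKO, with 95% Poisson intervals of the count, 1 WT and 1 DKO point per gene. The DKO point lies left of the WT point in each gene, by 0.64 on the log2 scale for Slfn1 up to 2.24 for Slfn5.

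The interferon-stimulated genes kept their calls when members that carried lineage genes were left out. All 25 were still called lower, and the median was -1.06 without the 13.5% of WT and 4.85% of DKO members that carried lineage genes. Free RNA, bounded in WT from the 1125245 barcodes of at most 100 UMIs by assuming that all hemoglobin in the members came from it, could supply from 0.30% to 17.4% of the WT UMIs of these 25 genes. That bound could not be formed in DKO, whose matrix held no such barcodes. In immature neutrophils 9 of 20 compared genes of the list were called lower (median -0.51), and in early neutrophils 4 of 13 (median -0.32). Over all genes compared in those stages, 6.87% and 3.62% were called lower. Isg15 fell under the level in those stages, with 22.7 CPM in WT and 4.49 CPM in DKO immature neutrophils. Whether the stages differ was not tested.

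Promoters of the lower interferon-stimulated genes are shown because interferon acts on such genes through a short repeated element, the interferon-stimulated response element. The letters GAAA, any 2 bases and GAAA again were searched on both strands in the 250 bases before the start of each gene, in a RefSeq table of build GRCm38.p6, in which 20 of the 25 genes matched. They were present in 9 of the 20 (45.0%), in 2 of 9 matched listed genes that were not called, in 3.80% of 3762 matched genes compared here, and in 3.46% of 27025 genes of the table. They were also present in 2 of the 8 matched genes among the 12 largest rises described below. A match is a description of the letters and not a bound site. The windows below are 60 bases each, on the strand of the gene, with the letters of the first match found in capitals. TTTC, 2 bases and TTTC is the same element on the other strand. Further matches of the same letters in the Isg15 and Ifit1 windows are left in lower case. The windows of Slfn5, Gbp7, Slfn8 and Trim30a, the others of the 9, are not printed, and the Slfn5 match runs into a stretch of A. Those printed lie at chr4:156200862-156200921 for Isg15, chr7:140955973-140956032 for Ifitm2, chr12:26456538-26456597 for Rsad2, chr5:120777700-120777759 for Oas3 (all on the minus strand) and chr19:34640760-34640819 for Ifit1 (plus strand). The marked match began 78, 46, 120, 75 and 104 bases before the start in that order.
Isg15: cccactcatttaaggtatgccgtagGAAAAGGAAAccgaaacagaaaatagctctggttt
Ifitm2: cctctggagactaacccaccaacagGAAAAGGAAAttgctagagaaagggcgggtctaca
Rsad2: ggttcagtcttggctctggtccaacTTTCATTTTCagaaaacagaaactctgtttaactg
Oas3: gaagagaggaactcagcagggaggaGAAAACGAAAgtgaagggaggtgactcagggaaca
Ifit1: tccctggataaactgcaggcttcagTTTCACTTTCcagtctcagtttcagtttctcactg

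Granule genes are given in the order in which their proteins are made. Of the 6 genes of the azurophil granule list 4 were compared, and all 4 were called lower in DKO, with a median of -1.17. Over all genes compared, 7.74% were called lower. Prtn3, proteinase 3, was at 47.3 CPM in WT and 11.7 CPM in DKO (log2 ratio -2.00), Elane, neutrophil elastase, at 36.0 and 15.1 CPM, and Mpo, myeloperoxidase, at 31.3 and 14.5 CPM. Serpinb1a, a gene of the list that encodes an inhibitor of Prtn3 and Elane, was at 158 and 101 CPM. The first 3 belong to a much earlier stage. Prtn3 was at 2757 CPM in WT and 1123 CPM in DKO early neutrophils. Free RNA could supply up to 66.1% of the WT UMIs of Prtn3, 80.7% of those of Elane and 71.4% of those of Mpo in mature neutrophils, and 4.43% of those of Serpinb1a. The part of free RNA in the difference was not tested.

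Specific granule genes, made at the stage before, had a median log2 ratio of -0.03. Of 12 compared, 1 was called higher and 1 lower, against 6.52% and 7.74% over all genes compared. Camp was at 4111 CPM in WT and 4199 CPM in DKO, and Ngp, neutrophilic granule protein, at 5033 and 4930 CPM. Olfm4, olfactomedin 4, which marks a subset of neutrophils, was the higher gene, with 126 and 210 CPM (log2 ratio 0.74). It was also called higher in immature neutrophils, at 246 and 610 CPM. Chil3 was the lower one, with 310 and 172 CPM, and Lcn2, the iron-scavenging lipocalin, was at 4508 and 3215 CPM, short of 1.5-fold.

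Gelatinase granule and secretory vesicle genes, the last to be made, had a median of 0.25, and 2 of 11 were called higher, against 6.52% over all genes compared. Slc11a1, the phagosomal metal transporter, was at 48.5 CPM in WT and 74.1 CPM in DKO, and Vnn3, a pantetheinase, at 16.4 and 34.1 CPM. Mmp9, gelatinase B, was at 2370 and 2663 CPM, and Fpr1, the receptor for bacterial formyl peptides, at 227 and 270 CPM, neither of them called. Without the members that carried lineage genes, Slc11a1 was no longer called (log2 ratio 0.55) and Vnn3 still was (0.98), which left 1 of 11.

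Few genes of killing and movement were called, where 6.52% were called higher and 7.74% lower over all genes compared. In lists this short, such counts do not show that the genes differed less than others. None of the 7 compared subunits of the NADPH oxidase, which makes superoxide, was called, with a median of -0.01. Cybb, its catalytic subunit, was at 685 CPM in WT and 917 CPM in DKO, and Cyba, its partner, at 1024 and 833 CPM. None of the 14 compared adhesion and trafficking genes was called (median 0.19). Cxcr4, which holds neutrophils in the marrow, was at 192 and 253 CPM. Of 28 actin and migration genes, Elmo1, which activates Rac with Dock2, was called higher (607 and 1018 CPM) and Tmsb10, thymosin beta 10, lower (377 and 192 CPM). Without the members that carried lineage genes Tmsb10 had a log2 ratio of -0.53 and was no longer called. None of 23 glycolysis and glycogen genes was called, and their median was 0.00.

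**Figure D4:**
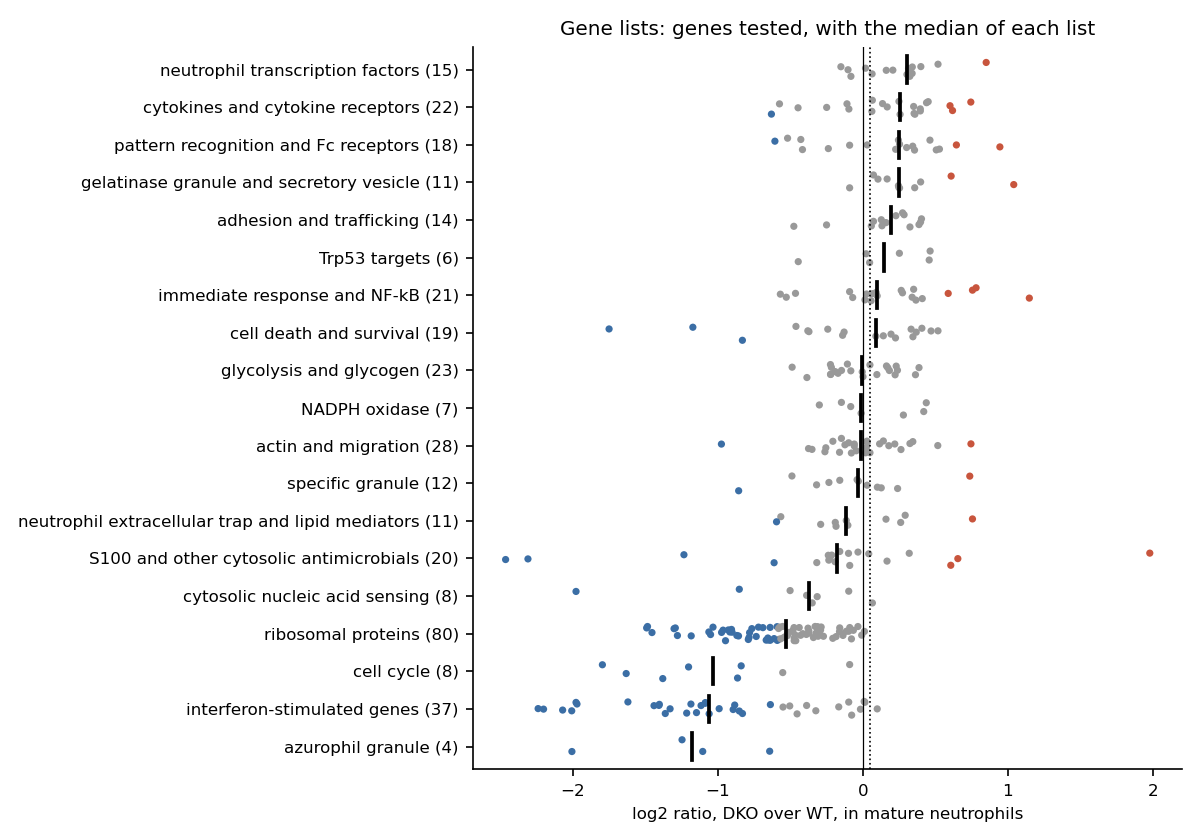
Log2 ratio of DKO over WT in mature neutrophils for each compared gene of 19 gene lists, one point per gene, colored where called lower (blue) or higher (red) and gray where not called, with a black bar at the list's median and a dotted line at the median of all genes (0.05). Medians ran from -1.17 for the azurophil granule genes, of which 4 were compared, to 0.31 for the neutrophil transcription factors.

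Of 18 compared pattern recognition and Fc receptor genes, 2 were called higher and 1 lower, with a median of 0.25, against 6.52% higher and 7.74% lower over all genes compared. The list summed to 4712 CPM in WT and 4643 CPM in DKO. Tlr2, the receptor for bacterial lipoproteins, was at 74.2 CPM in WT and 143 CPM in DKO (log2 ratio 0.95, interval 0.78 to 1.11). Nlrp12, a NOD-like receptor of neutrophils, was at 176 and 275 CPM, and Nod1, the intracellular sensor of peptidoglycan, was the lower gene at 31.7 and 20.8 CPM. Tlr2 showed the same direction in immature neutrophils, at 12.5 and 25.5 CPM.

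Of 22 compared cytokine and cytokine receptor genes, 3 were called higher and 1 lower (median 0.25), against 6.52% and 7.74% over all genes compared. Ccl6 was at 1075 CPM in WT and 1803 CPM in DKO (log2 ratio 0.75) and was seen in 53.5% and 67.8% of the members after thinning, against 1.09% and 1.49% of B-lineage barcodes. Il1b was at 567 and 860 CPM (log2 ratio 0.60) and was seen in 31.9% and 41.8% of the members, against 0.616% and 1.02% of B-lineage barcodes. Without the members that carried lineage genes the log2 ratio of Il1b was 0.51, no longer called, and that of Ccl6 was 0.72. Cxcl2, a chemokine that attracts neutrophils, was called lower without them (-0.64, against -0.57 with all members), so the list then had 2 genes higher and 2 lower. Il10ra, a receptor chain for interleukin-10, was at 21.1 and 32.5 CPM, and Il4ra, the interleukin-4 receptor, was the lower gene at 73.7 and 47.6 CPM. Csf3r was at 1588 and 1746 CPM, and Ifnar1 and Ifnar2, the chains of the type I interferon receptor, were at 55.3 and 57.8 CPM and at 189 and 177 CPM, none of them called.

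Among transcription factors of granulopoiesis and maturation, 1 of 15 was called, in the higher direction, with a median of 0.31. Jdp2, an AP-1 family repressor, was at 75.9 CPM in WT and 137 CPM in DKO. Cebpb, which drives emergency granulopoiesis, was at 818 and 1172 CPM and was not called. Of 21 compared genes of the immediate response and NF-kB, 4 were called higher and none lower (median 0.10), against 6.52% and 7.74% over all genes compared. Fosl2, a Fos family member, was at 177 and 393 CPM (log2 ratio 1.15, interval 1.05 to 1.25), and it was also called higher in immature neutrophils (56.3 and 114 CPM). Ptgs2, cyclooxygenase 2, was at 32.5 and 55.1 CPM, Nfkbid, a nuclear IkB protein, at 33.2 and 57.3 CPM, and Btg1, an antiproliferative factor, at 993 and 1494 CPM. Fos was at 352 and 366 CPM and Nfkbia at 192 and 183 CPM. These genes also answer to the handling of cells, and the part of handling was not tested. With the lineage-gene carriers left out, 3 genes of the list were called higher and 1 lower. Btg1 was no longer called (log2 ratio 0.54), and Gadd45b, a stress-response gene, was called lower (-0.65, against -0.53 with all members).

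Among genes of cell death and the p53 response, 3 were called, all lower in DKO. None of 6 compared Trp53 target genes was called (median 0.15), and Cdkn1a, the cell cycle inhibitor p21, was under the level at 1.37 CPM in WT and 4.13 CPM in DKO. Of 19 compared genes of cell death and survival 3 were called lower (median 0.09), against 7.74% over all genes compared. Pycard, the inflammasome adaptor ASC, was at 67.8 and 30.1 CPM and Casp8 at 34.3 and 19.2 CPM, and both were still called without the members that carried lineage genes. Bcl2, the survival gene of lymphocytes, was at 34.8 and 10.3 CPM with all members and at 1.48 and 2.13 CPM without them. The list then had 2 of 18 compared genes called lower. Mcl1, on which neutrophils depend to survive, was at 751 and 955 CPM and was not called. Of 11 compared lipid mediator and extracellular trap genes, 1 was called higher and 1 lower, against 6.52% and 7.74% over all genes compared. The higher gene was Ptgs2, given above. Alox5ap, which feeds leukotriene synthesis, was the lower gene (1476 and 977 CPM), and Padi4, the enzyme of chromatin decondensation, was not called (303 and 371 CPM).

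Small cytosolic proteins moved in both directions. Of 20 compared S100 and other antimicrobial genes, 3 were called higher and 4 lower (median -0.17, and 0.05 after subtracting the median of each gene's length decile). Over all genes compared, 6.52% were called higher and 7.74% lower. Wfdc17, a whey acidic protein that restrains macrophage activation, had the lowest ratio of the genes with a mean of at least 100 CPM, with 902 CPM in WT (878 to 927) and 164 CPM in DKO (154 to 173), a log2 ratio of -2.46. It was seen in 33.7% of WT and 9.72% of DKO members after thinning, against 3.17% and 1.76% of B-lineage barcodes, and in 48.6% and 19.6% before. Like Ifitm1 it was highest in the members with no Ltf, going from 69.4 to 462 to 1388 CPM in WT and from 23.0 to 99.1 to 241 CPM in DKO. With those that carried lineage genes left out its log2 ratio was -2.49. Stfa3, a stefin that inhibits cysteine proteases, was at 12.3 and 49.2 CPM (log2 ratio 1.98), and its relatives Stfa2 and Stfa2l1 were also called higher, although reads that these similar genes share may have been split among them. When members that carried lineage genes were left out, Stfa2 (log2 ratio 0.51) and Stfa2l1 (0.57) were no longer called, and the list had 1 gene higher and 3 lower of 19 compared. S100a4 and S100a10 were at 36.3 and 15.4 CPM and at 47.8 and 9.55 CPM. Without those members S100a10 was at 20.7 and 4.42 CPM, under the level of comparison.

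Ribosomal protein genes were lower in DKO, and most of these calls were lost without the members that carried lineage genes. Of 80 compared, 34 were called lower and none higher, 79 had a log2 ratio below 0, and the median was -0.53, against 7.74% called lower over all genes compared. Their sum was 33045 CPM in WT and 23859 CPM in DKO. Without the members that carried lineage genes, 6 of 80 were called lower, the median was -0.13 and the sums were 23276 and 21570 CPM. The interferon-stimulated genes, by contrast, had 25 calls both ways. The ribosomal protein genes were short, with a median span of 3.33 kb. In the shortest length decile, which shares genes with this list, 109 of 467 genes were called lower with all members (median -0.27). The part of gene length in the ribosomal difference was not tested. Cell cycle genes were called lower for 6 of 8 compared (median -1.03), such as Mki67 at 51.6 and 22.4 CPM and Stmn1 at 60.1 and 17.2 CPM. Without the members that carried lineage genes, 4 of 6 compared were called lower, and Top2a and Pcna were under the level. Mature neutrophils do not divide, and free RNA could supply from 26.7% to 47.6% of the WT UMIs of the 6 genes called with all members. Its part in their difference was not tested. In immature neutrophils 14 of 16 compared cell cycle genes were called lower (median -0.85), and in early neutrophils 0 of 19 (median -0.10). Over all genes compared in those stages, 6.87% and 3.62% were called lower.

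The 12 genes with the largest rise in DKO, among genes with a mean of at least 100 CPM, had spans from 15.3 to 282 kb. Cnnm2, a magnesium transport protein, was at 43.3 CPM in WT and 164 CPM in DKO (log2 ratio 1.92). Thbs1, thrombospondin-1, a matrix protein that curbs inflammation, was at 106 and 384 CPM, and it was also called higher in immature neutrophils (92.1 and 243 CPM). Stat4, the transducer of interleukin-12 and interferon signals, was at 113 and 371 CPM. Antxr2, an anthrax toxin receptor, was at 455 and 1376 CPM. Entpd1, the ectonucleotidase CD39 that degrades extracellular ATP, was at 283 and 755 CPM. Il15, a cytokine for NK and T cells, was at 159 and 417 CPM. Bmpr1a, a BMP receptor, was at 60.3 and 152 CPM. Bmpr1a, Entpd1, Il15, and Gfod1 and Sipa1l1 named below, were called higher at each of the 3 stages. All of the 12 rises but Cyth1 (log2 ratio 0.37 there) were also called higher in immature neutrophils.

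The remaining rises were March3 (log2 ratio 1.51), a membrane ubiquitin ligase, Sik3 (200 CPM in WT and 569 CPM in DKO), a salt-inducible kinase, Gfod1 (1.36), Cyth1 (1.26), which activates Arf GTPases and integrins, and Sipa1l1 (1.19), a Rap GTPase regulator. Within the Ltf gradient Antxr2 and Entpd1 were higher in DKO at each step. Antxr2 stood at 487 CPM in WT and 1504 CPM in DKO in the members with no Ltf, and at 357 and 1071 CPM in those with at least 10 Ltf UMIs. The 12 rises kept log2 ratios from 0.96 to 1.91 after the median of each gene's length decile was subtracted.

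Besides Wfdc17, Ifi27l2a, Ifitm1, Ifitm3 and Oasl2, the 12 largest falls were Plac8 (-1.67), a cysteine-rich protein of myeloid cells, Cd74 (-1.55), the invariant chain of MHC class II, Ptma (-1.52), prothymosin alpha, Tspo (-1.49), a cholesterol-binding protein of the outer mitochondrial membrane, and the ribosomal genes Rpl14 (-1.49), Rpl12 (-1.48) and Rpl10a (-1.45). Tspo was at 681 CPM in WT and 242 CPM in DKO and had the same log2 ratio, -1.49, without the members that carried lineage genes. Cd74 had -0.41 without them and fell under the level of comparison, and Rpl14, Rpl12 and Rpl10a had -0.73, -0.65 and -0.89. Plac8 and Ptma had -1.42 and -1.23 and were still called.

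The ratio between the libraries was higher in longer genes. The 304 higher genes had a median span of 57.4 kb and the 361 lower genes 10.5 kb, against 31.3 kb over the genes compared. The 12 largest rises had a median span of 119 kb and the 12 largest falls one of 3.50 kb. Over deciles of length the median log2 ratio in mature neutrophils went from -0.27 in the shortest (median span 3.12 kb) to 0.22 in the longest (212 kb). Early neutrophils showed a wider range, from -0.24 to 0.53. Whether reads in introns were counted is not given in the sources used here, and the part of gene length or nuclear RNA in the calls was not tested. With the decile median subtracted, 222 genes were called higher and 360 lower, and 24 interferon-stimulated genes were still called lower.

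**Figure D5:**
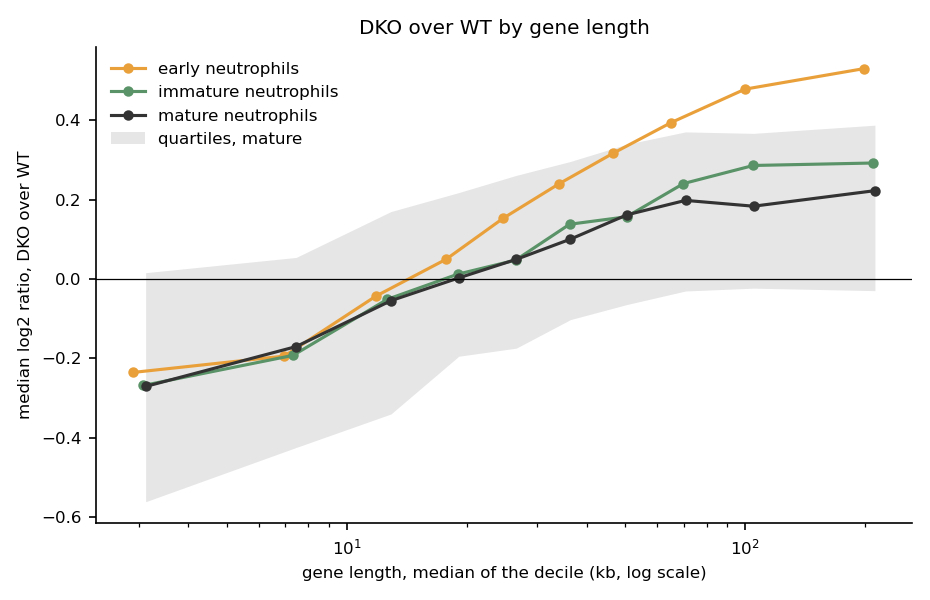
Median log2 ratio of DKO over WT by decile of gene length (kb, log scale) in mature, immature and early neutrophils, with the quartiles of the mature neutrophils in gray. The longest decile lay above the shortest at the 3 stages, at 0.22 against -0.27 in mature neutrophils.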

How the data were processed

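Femoral bone marrow of 1 WT and 1 DKO mouse was measured as single cells. Reads had been run by the authors through Cell Ranger (7.1.0 per the file headers, mm10 per the labels), who deposited raw UMI counts per gene and barcode, with all barcodes for WT (1518290 listed) and called barcodes only for DKO (14142). Intron counting is not given in the sources used here.

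Members were found by the fixed rule given above, with no doublet caller. Counts were summed per library over the members, scaled to CPM by their total and compared as log2 ratios of DKO over WT with 1 count added, for genes with a mean of at least 20 CPM. A call needed 1.5-fold and a 95% interval without 0. Intervals were exact Poisson (levels), Clopper-Pearson (shares) and conditional binomial (ratios), and cover counting error only. Depth was 135693452 UMIs in WT and 117725934 in DKO over all barcodes. The script was tested on simulated counts.

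The members and all gene lists were chosen with earlier results of these data known. Named were Ddx41, Cgas, list genes, the 12 largest rises and falls with a mean of at least 100 CPM (hemoglobin as a group) and the 10 largest stage rises and falls. Gene spans came from GENCODE M21 (32158 of 32285 genes matched) and promoters from RefSeq. Python 3.11.15, numpy 2.4.6, scipy 1.17.1, pandas 2.3.3 and matplotlib 3.10.9 were used. There were 16 alternatives planned and 2 added after the data were seen.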

Additional observations from a re-analysis of the deposited data

Results flagged for a closer look

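For 5 genes the libraries differed in opposite directions in mature neutrophils and in another stage, each past 1.5-fold with an interval without 0. The genes were chosen after their values were seen, the stages share their libraries, and the difference between stages was not tested. Dock10 had a log2 ratio of DKO over WT of -0.90 in mature and 0.89 in early neutrophils. Its level fell with maturation in both libraries, from 204 CPM in early to 39.6 CPM in mature neutrophils in WT and from 376 to 21.1 CPM in DKO. Kif16b, a kinesin of endosomes, had -0.70 in mature and 0.69 in early neutrophils. Tcf12, an E-protein transcription factor, had -0.67 in mature and 0.64 in early neutrophils. Hrh2, the histamine receptor 2, had -1.52 in mature and 0.66 in early neutrophils, and in WT it was higher in mature (82.6 CPM) than in early neutrophils (17.9 CPM), against 28.8 and 28.3 CPM in DKO. Adk, adenosine kinase, had -0.79 in mature and 0.64 in immature neutrophils. In mature neutrophils Kif16b, Tcf12 and Adk lay near the level of comparison, with means of 20.4, 21.5 and 21.2 CPM.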

How the results depend on the processing

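With 1 library per genotype no library could be left out and no test was possible. No paired analysis was possible because each genotype had 1 mouse. Under the 18 alternatives the 24 largest rises and falls kept their direction, and the median of the interferon-stimulated genes stayed between -1.11 and -0.91. Ddx41 ranged from -1.67 to -0.82 and Cgas from -2.82 to -0.41. The 304 higher genes became 547 with no minimum level. The 361 lower genes became 2199 with no minimum level, 144 at a mean of at least 50 CPM, 196 with the 5 myeloid genes at 15% or more of UMIs, 231 without members with 3 or more UMIs of other lineages and 219 without those with 2 or more UMIs of the 9 lineage genes. The difference in share of 8.87 points became 2.69 with the 15% minimum and 11.7 with a minimum of 2000 UMIs. The share called higher, 45.7%, was 37.3% when 6 abundant neutrophil genes were left out of the total and 34.7% with median-of-ratios scaling. Ribosomal protein medians ranged from -0.60 to -0.11. Calls in genes near 20 CPM rest on few UMIs.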

Other observations

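Interferon-stimulated RNA was unevenly spread among the mature neutrophils. Isg15 was detected in 245 of 1669 WT members (14.7%) and in 101 of 1793 DKO members (5.63%). In WT, 54.7% of the members with Isg15 (interval 48.2% to 61.0%) also had a UMI of Ifit1, Ifit2, Ifit3, Ifit3b, Rsad2 or Oasl1, against 23.0% of those without it (20.9% to 25.3%). In DKO the shares were 43.6% (33.7% to 53.8%) and 9.69% (8.32% to 11.2%). Ifitm1 was seen in 60.0% of the WT members with Isg15 and in 49.8% of those without it. In DKO the shares were 24.8% (25 of 101 members) and 30.2% (511 of 1692). No intervals were computed for the Ifitm1 shares, so whether their order differs between the libraries beyond counting error was not tested. Members with and without Isg15 had similar depth, with medians of 3050 and 3079.5 UMIs in WT and 3648 and 3584 UMIs in DKO. After thinning to 1000 UMIs Isg15 was seen in 7.42% of WT and 1.81% of DKO members, against 1.85% and 0.678% of B-lineage barcodes. The shares with a second gene were not thinned, no background share was computed for them, and the part of free RNA in them was not tested. These 6 genes were chosen after values were seen, members of 1 library are not replicates, and no test was made.

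Across the Ltf gradient the interferon list and the oxidase list ran in different ways. The NADPH oxidase genes, subunits of the superoxide-producing complex, fell from 6291 to 4725 to 4080 CPM in WT and from 6659 to 5221 to 4358 CPM in DKO, from the members with at least 10 Ltf UMIs to those with none. The interferon-stimulated genes went from 9214 to 9873 to 11940 CPM in WT and from 5582 to 5094 to 5620 CPM in DKO.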
